A study of Mus musculus with 6 samples.

Results

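The proteasome is the large barrel-shaped protease that degrades most ubiquitin-tagged proteins in the cytosol and nucleus. Its genes were followed in hearts of mice that lack Elac2 in muscle. They were chosen by name, as the protein-coding genes whose symbol begins with Psma, Psmb, Psmc, Psmd, Psme, Psmf or Psmg and a digit, a rule that uses no measured value. The name rule took 50 of the 51888 genes in the count table, of which 22012 are protein-coding. Of these 50 genes, 7 encode the constitutive alpha subunits and 7 the constitutive beta subunits of the core. The regulatory particle is encoded by 6 ATPase genes, 3 further base genes and 8 lid genes. The inducible immunoproteasome subunits are encoded by 3 genes. Assembly chaperones account for 7 genes, activators for 5, an inhibitor for 1, and tissue-specific core subunits for 2 (Psma8 of the testis and Psmb11 of the thymus). The last gene, Psmc3ip, matches the rule by its symbol but encodes a meiotic recombination factor and no proteasome subunit.

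Hearts of 3 knockout mice, labelled L/L, cre, were compared with hearts of 3 control mice, labelled L/L. All 6 mice were on the C57BL/6 background and, by these labels, carried the loxP-flanked Elac2 exon, which the controls kept intact (labelled Elac2 +/+). In the knockout mice, cre driven by the muscle creatine kinase promoter removed the exon, so cells in which this promoter is silent keep the gene. No group carried cre without loss of Elac2, so an effect of cre cannot be told apart from that of the deletion. The sources used here give neither age nor sex. RNA of total hearts was sequenced, and p-values measure the spread between the 3 hearts of a group.

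In the core, the alpha subunits form the outer rings and the gate, and the beta subunits form the inner rings that carry the catalytic sites. The regulatory particle caps the core. Its base of ATPases unfolds the substrate and its lid removes the ubiquitin chain. Under interferon signalling and in immune cells, the catalytic beta subunits are exchanged for immunoproteasome subunits, which favour peptides for MHC class I. In heart muscle, which does not divide, the proteasome is known for clearing damaged sarcomere proteins.

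The libraries held 9850100 to 14461110 counts in knockouts and 12057962 to 14276410 counts in controls. Elac2 was at 5.36, 5.63 and 6.52 CPM in knockouts and 15.0, 14.0 and 13.0 CPM in controls, where CPM are counts relative to the library size after TMM scaling, which takes most genes as unchanged. Its log2 fold change, knockout over control throughout, was -1.27 (SE 0.15, edgeR quasi-likelihood test, adjusted p = 2.12e-04). Mitochondrial-encoded features took 33.3% to 36.7% of counts in knockouts and 49.3% to 61.1% in controls. Without TMM scaling, by library size alone, the median log2 fold change of all 14302 tested genes was 0.68 in place of -0.01. Of 8 cardiomyocyte markers 4 were called lower (Myh6, Actc1, Ryr2 and Pln), and the list's summed level was 20327 to 22624 CPM in knockouts and 40101 to 41574 CPM in controls. Of 5 endothelial markers 3 were called lower (Kdr, Cdh5 and Tie1), with sums of 303 to 347 CPM in knockouts and 406 to 484 CPM in controls. Of 5 fibroblast markers 0 were called by edgeR, by DESeq2 or at an unadjusted p under 0.05, with sums of 1146, 723 and 627 CPM in knockouts and 711, 707 and 472 CPM in controls. Knockout 1 stood apart there, with Col1a1 at 331 CPM beside 85.6 and 54.8 CPM in the other knockouts. Of 3 erythroid markers 1 was called higher (Alas2, 0.81, edgeR adjusted p = 0.0467), with sums of 1163 to 2410 CPM in knockouts and 436 to 1458 CPM in controls, a ratio of means of 1.74. Among 12 leukocyte markers, 9 were tested and 1 was called higher (Lyz2), with sums of 156 to 190 CPM in knockouts and 136 to 163 CPM in controls. These marker genes were named after their values were seen. In whole-heart RNA, fewer cells of a type and less RNA per cell cannot be told apart, and the part of these shifts in the values below was not tested.

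Most proteasome genes were more abundant in the knockout hearts. Of the 48 that passed the filter on low counts, 33 were called higher (68.8%) at an edgeR adjusted p under 0.05, where 18.7% of all tested genes were called higher. Another 2 were called lower (4.17%), where 17.8% of all tested genes were, and 13 were not called. The median log2 fold change of the 48 was 0.58, beside -0.01 over all tested genes. All 3 knockouts lay above all 3 controls in 35 of the 48 (26.2% of all tested genes) and below in 3 (24.5% of all tested genes). The changes were moderate, and a value given beside an SE or an adjusted p is a log2 fold change. They ran from -1.003 (Psme1) to 1.32 (Psmd8). The authors' deposited table called 30 of these genes, 28 higher and 2 lower, and all 30 were also called here with the same sign.

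**Figure D1:**
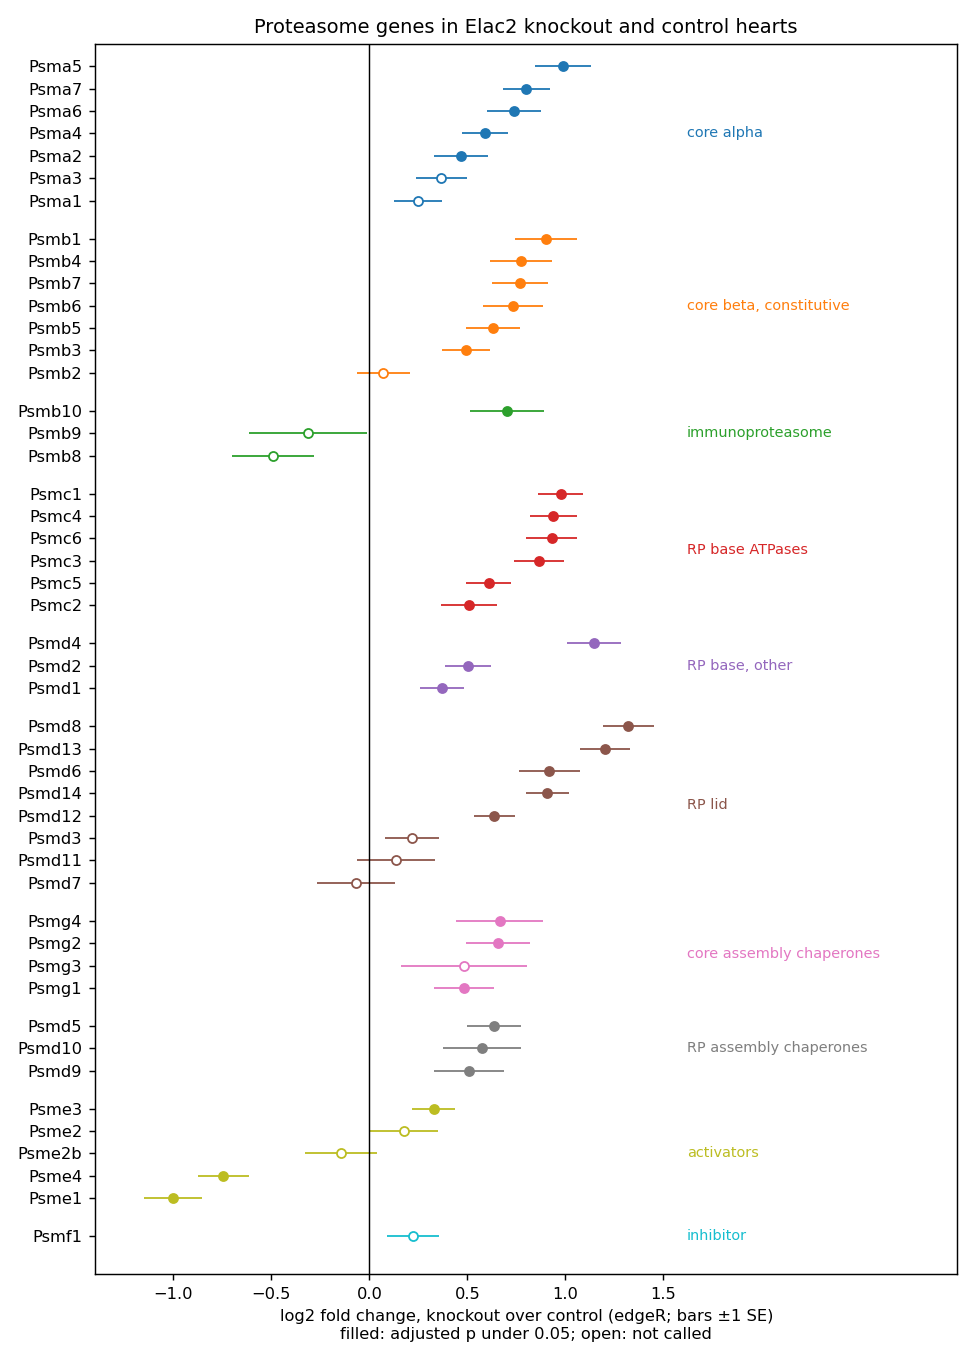
Log2 fold change, knockout over control, of 47 tested proteasome genes by class (all but Psmc3ip), from edgeR with bars of 1 SE. Filled points have an adjusted p under 0.05. Core, regulatory particle and chaperone genes lie to the right of 0 except Psmd7 (-0.07, or 0.65 by library size alone), while Psme1 (-1.003) and Psme4 (-0.74) lie to the left.

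The constitutive core rose in 11 of its 14 genes (78.6%, beside 18.7% of all tested genes), with a median log2 fold change of 0.68. None was lower by edgeR at an adjusted p or at an unadjusted p under 0.05 (0 of 14), or by DESeq2 (0). Summed over the 14 genes, the core stood at 780, 947 and 876 CPM in knockouts and 615, 567 and 498 CPM in controls. Every knockout sum lay above every control sum, and the ratio of the means was 1.55.

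Among the alpha genes 5 of 7 rose. Psma5 (alpha5, ENSMUSG00000068749.9, chr3:108256926-108279974 in mm10) changed most. It stood at 33.4, 38.1 and 36.2 CPM in knockouts and 19.7, 20.0 and 14.4 CPM in controls, so the lowest knockout was far above the highest control. Its level in knockouts was 1.98 times that in controls (log2 fold change 0.99, SE 0.14, edgeR adjusted p = 6.62e-04). Psma7 (alpha4) was at 58.1, 70.2 and 66.3 CPM in knockouts and 38.7, 39.0 and 33.9 CPM in controls, or 0.80 on the log2 scale (SE 0.12, adjusted p = 7.76e-04). Psma6 (alpha1) was at 56.0, 77.3 and 71.0 CPM in knockouts and 43.8, 40.8 and 37.9 CPM in controls (0.74, SE 0.14, adjusted p = 0.00279). The groups did not overlap for these genes, and knockout 1 was the lowest of the knockouts in each. Psma4 (alpha3) was at 61.3, 68.1 and 63.0 CPM in knockouts and 44.8, 45.8 and 37.4 CPM in controls (0.59, SE 0.12, adjusted p = 0.00391). Psma2 (alpha2) also rose (0.47, SE 0.14, adjusted p = 0.0240). This call ended without knockout 2 (adjusted p = 0.0951), control 2 (0.0752) or control 3 (0.0766). The alpha genes that were not called also had positive values, Psma3 (alpha7) of 0.37 (SE 0.13, adjusted p = 0.05004, just above the threshold) and Psma1 (alpha6) of 0.25 (SE 0.12, adjusted p = 0.136).

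Psma3, Psma4 and Psma5 have near-identical processed pseudogenes elsewhere in the genome, and reads may be split between them and the parent gene. The copies of Psma5 (Gm12989 and Gm8394) held 461 counts where Psma5 held 2301 (20.0%). The copies of Psma3 held 748 counts where Psma3 held 4126 (18.1%), almost all of them on Gm13835, which matches Psma3 at 100% of 665 bases. With the counts of such copies added to the parent gene, Psma5 had a log2 fold change of 0.99, Psma4 of 0.54, and Psma3 one of 0.39 that was called (adjusted p = 0.0448).

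Of the 7 constitutive beta genes 6 rose, among them all 3 that carry the catalytic sites. Psmb5 (beta5, the chymotrypsin-like site) was at 47.0, 36.2 and 34.4 CPM in knockouts and 24.4, 25.3 and 26.4 CPM in controls (log2 fold change 0.63, SE 0.14, edgeR adjusted p = 0.00601). Psmb6 (beta1, the caspase-like site) was at 70.3, 89.4 and 79.9 CPM in knockouts and 57.5, 46.0 and 40.2 CPM in controls (0.73, SE 0.15, adjusted p = 0.00468). Psmb7 (beta2, the trypsin-like site) was at 95.1, 112 and 105 CPM in knockouts and 69.8, 62.8 and 50.4 CPM in controls (0.77, SE 0.14, adjusted p = 0.00245). The groups did not overlap for any of the catalytic genes, but knockout 1 was the highest knockout for Psmb5 and the lowest for Psmb6 and Psmb7.

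The largest change of a beta gene was that of Psmb1 (beta6, a structural subunit, ENSMUSG00000014769.9, chr17:15475021-15499751). Psmb1 was at 69.4, 99.5 and 92.3 CPM in knockouts and 52.8, 46.2 and 40.5 CPM in controls, a ratio of 1.87 (log2 fold change 0.90, SE 0.16, edgeR adjusted p = 0.00196). Psmb4 (beta7) was at 70.5, 89.9 and 82.0 CPM in knockouts and 56.7, 47.0 and 37.8 CPM in controls (0.77, SE 0.16, adjusted p = 0.00454). For both genes control 1 was the highest control and still below every knockout. Psmb3 (beta3) rose by 0.49 (SE 0.12, adjusted p = 0.0104). Psmb2 (beta4) was at 28.9, 38.6 and 32.6 CPM in knockouts and 29.1, 31.8 and 34.5 CPM in controls, and its log2 fold change was 0.07 (SE 0.13, adjusted p = 0.710). Its groups overlapped, and the SD within each group (4.88 in knockouts and 2.69 in controls) was wider than the gap between the means.

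Of the 3 immunoproteasome genes 1 was called higher (33.3%, beside 18.7% of all tested genes) and 0 lower (beside 17.8%). The constitutive beta genes had 6 of 7 called higher. Psmb10 (beta2i, ENSMUSG00000031897.9, chr8:105935735-105938444) was at 18.4, 24.7 and 17.9 CPM in knockouts and 13.4, 14.4 and 9.52 CPM in controls. The groups did not overlap, and the log2 fold change was 0.70 (SE 0.19, edgeR adjusted p = 0.0159). Without knockout 2, the highest library, Psmb10 had 0.54 and was not called (adjusted p = 0.0697). Psmb8 (beta5i, ENSMUSG00000024338.14, chr17:34197721-34201454) was at 4.72, 3.66 and 3.22 CPM in knockouts and 5.94, 5.67 and 4.76 CPM in controls. The lowest control lay just above the highest knockout, and the log2 fold change of -0.49 (SE 0.21, adjusted p = 0.0905) was not called. It was called without knockout 1 (-0.66, adjusted p = 0.0301). Psmb9 (beta1i, ENSMUSG00000096727.2, chr17:34181987-34187764) was at 1.96, 1.51 and 1.69 CPM in knockouts and 1.58, 3.0003 and 1.97 CPM in controls, with overlapping groups (-0.31, SE 0.30, adjusted p = 0.442). The median of the 3 genes was -0.31, -0.015 without control 2, and 0.40 by library size alone, where Psmb8 had 0.19 and Psmb9 0.40. Psmb9 rests on few reads, 37, 26 and 21 in knockouts and 21, 27 and 17 in controls.

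Each immunoproteasome subunit takes the place of 1 constitutive partner, so the counts of a pair were divided within each library, which needs no scaling between libraries. Psmb8 stood at 10.1%, 10.1% and 9.37% of Psmb5 in knockouts and at 24.4%, 22.4% and 18.1% in controls. The knockout values were close together and all below the lowest control (9.85 ± 0.415% in knockouts and 21.6 ± 3.23% in controls, SD, n = 3 each). Psmb9 stood at 2.79%, 1.69% and 2.11% of Psmb6 in knockouts and at 2.75%, 6.52% and 4.91% in controls, where control 1 fell among the knockouts. Psmb10 stood at 19.3%, 22.0% and 17.1% of Psmb7 in knockouts and at 19.2%, 23.0% and 18.9% in controls, with the groups on top of each other. The pairs thus differed among themselves: Psmb10 and Psmb7 were higher by like amounts, while Psmb5 was higher and Psmb8 was not. No test was run on these ratios, and with 3 libraries against 3 an exact two-sided permutation test cannot go below p = 0.10. Per kilobase of exon, each immunoproteasome transcript was below that of its partner in both groups, which does not measure the proteins. This length counts all annotated exons, 3381 bases for Psmb8 and 899 for Psmb5. Psmb8 was at 1.14 CPM per kb in knockouts and 1.61 in controls, where Psmb5 was at 43.6 in knockouts and 28.2 in controls. The pairs differed widely on this scale. Psmb9 was at 1.13% of Psmb6 in knockouts and 2.42% in controls, but Psmb10 at 39.1% of Psmb7 in knockouts and 40.9% in controls.

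**Figure D2:**
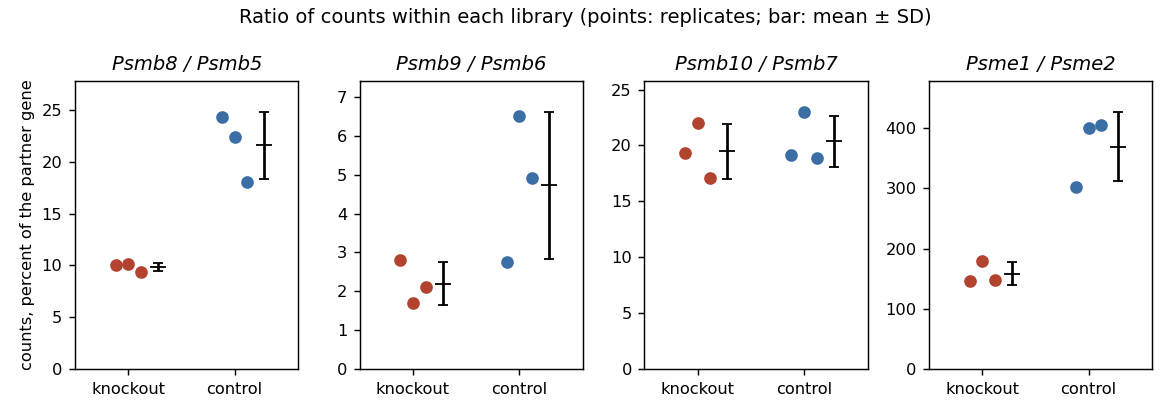
Counts of 1 gene as a percentage of its partner's within each library, for the 3 immunoproteasome exchange pairs and for Psme1 over Psme2. Points are libraries and bars are mean ± SD (n = 3 each). Psmb8 over Psmb5 (9.85% in knockouts and 21.6% in controls) and Psme1 over Psme2 (158% in knockouts and 369% in controls) separate the groups, while the other 2 pairs overlap.

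Among 13 other genes of MHC class I antigen presentation, 0 were called higher by edgeR, where 18.7% of all tested genes were. The count was also 0 at an unadjusted p under 0.05 and by DESeq2. Without control 2, 1 of them was called higher, and by library size alone 6 were. By edgeR 2 were called lower, both named after their values were seen. They were Tap2 (a peptide transporter subunit) with a log2 fold change of -0.49 (adjusted p = 0.0219) and Nlrc5 (the class I transactivator) with -0.75 (adjusted p = 0.0369). These 2 of 13 (15.4%) are near the 17.8% of all tested genes. Neither call held with DESeq2 (Tap2 adjusted p = 0.0890, Nlrc5 adjusted p = 0.0698) or in the authors' deposited table, and both ended without knockout 2, control 1 or control 2. The call on Nlrc5 also ended without knockout 3 or control 3. The median of the list was -0.24, and 0.48 by library size alone. Tap1, which lies head to head with Psmb9 and shares 212 exonic bases with it on the other strand, was at 7.504 CPM in knockouts and 7.18 CPM in controls (0.07, adjusted p = 0.766). The sources do not say whether strand was used in counting, so reads of that overlap cannot be assigned to either gene. Of the 9 leukocyte markers tested, 1 was called higher (11.1%, beside 18.7% of all tested genes) and 0 lower (beside 17.8%). Values of 6 of the 9 were positive, with a median of 0.05. Lyz2, the marker called, was at 71.3 CPM in knockouts and 49.7 CPM in controls and held the largest part of the sums given above. The T cell marker Cd3e was near 0 in both groups (0.0622 CPM in knockouts and 0.0758 CPM in controls).

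The regulatory particle rose in 14 of its 17 genes (82.4%, beside 18.7% of all tested genes), with a median log2 fold change of 0.87. None was lower by edgeR at an adjusted p or at an unadjusted p under 0.05 (0 of 17), or by DESeq2 (0). Its genes summed to 1336, 1418 and 1298 CPM in knockouts and 846, 804 and 789 CPM in controls, a ratio of means of 1.66 with no overlap. With each library left out in turn, 12 to 14 of its genes were called higher, and 10 to 13 of the core's.

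All 6 ATPase genes of the base rose, by log2 fold changes of 0.51 to 0.98. Psmc1 (Rpt2, ENSMUSG00000021178.9, chr12:100110154-100123405) was at 82.0, 93.3 and 92.9 CPM in knockouts and 46.9, 41.3 and 48.1 CPM in controls, a ratio of 1.97 (log2 fold change 0.98, SE 0.12, edgeR adjusted p = 2.36e-04). Psmc4 (Rpt3) was at 73.0, 79.5 and 70.9 CPM in knockouts and 42.9, 39.4 and 34.0 CPM in controls (0.94, SE 0.12, adjusted p = 3.57e-04). Psmc6 (Rpt4) was at 98.7, 115 and 100 CPM in knockouts and 61.5, 54.8 and 48.3 CPM in controls (0.93, SE 0.13, adjusted p = 5.37e-04). In each of these the lowest knockout exceeded the highest control by more than the spread within either group. Psmc3 (Rpt5), the most abundant of the ATPase transcripts per length, was at 135, 167 and 160 CPM in knockouts and 91.1, 84.3 and 77.5 CPM in controls (0.87, SE 0.13, adjusted p = 7.45e-04). Psmc5 (Rpt6) rose by 0.61 (SE 0.12, adjusted p = 0.00289). Psmc2 (Rpt1) rose least, by 0.51 (SE 0.14, adjusted p = 0.0186), and this call ended without control 1 (adjusted p = 0.0762) or control 2 (0.0761).

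The other base genes rose as well, and unequally. Psmd4 (Rpn10, a receptor for ubiquitin chains, ENSMUSG00000005625.15, chr3:95032694-95042614) was at 77.2, 92.1 and 86.1 CPM in knockouts and 43.9, 39.0 and 32.4 CPM in controls, a ratio of 2.21 (log2 fold change 1.14, SE 0.14, edgeR adjusted p = 2.40e-04). The largest scaffold subunits changed less. Psmd2 (Rpn1) was at 150, 170 and 158 CPM in knockouts and 121, 114 and 103.5 CPM in controls (0.50, SE 0.12, adjusted p = 0.00853). Psmd1 (Rpn2) was at 107, 110 and 101 CPM in knockouts and 80.9, 87.8 and 77.1 CPM in controls (0.37, SE 0.11, adjusted p = 0.0263), without overlap. The call on Psmd1 ended without knockout 2 (adjusted p = 0.0906), control 1 (0.0658) or control 3 (0.0775).

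The lid held both the largest rises and the genes that stayed near 0. Psmd8 (Rpn12, ENSMUSG00000030591.17, chr7:29174188-29180701) was at 100, 104 and 81.6 CPM in knockouts and 36.9, 41.3 and 36.4 CPM in controls, a ratio of 2.50 (log2 fold change 1.32, SE 0.13, edgeR adjusted p = 7.76e-05). Psmd13 (Rpn9, ENSMUSG00000025487.15, chr7:140881968-140898643) was at 68.5, 77.7 and 67.9 CPM in knockouts and 35.5, 28.8 and 28.6 CPM in controls, a ratio of 2.30 (1.20, SE 0.13, adjusted p = 1.20e-04). For both, the lowest knockout stood far above the highest control. Of the exonic bases of Psmd13, 10.1% are shared with Sirt3 on the other strand. Psmd6 (Rpn7) was at 54.3, 65.0 and 61.3 CPM in knockouts and 36.9, 33.8 and 24.5 CPM in controls (0.92, SE 0.16, adjusted p = 0.00159). Psmd14 (Rpn11, the deubiquitinase that releases the chain) was at 51.5, 53.1 and 48.0 CPM in knockouts and 29.4, 25.7 and 26.1 CPM in controls (0.91, SE 0.11, adjusted p = 2.58e-04). Psmd12 (Rpn5) rose by 0.64 (SE 0.11, adjusted p = 0.00147). For these too the groups were apart.

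Psmd3, Psmd7 and Psmd11 of the lid were not called. Psmd7 (Rpn8, the partner of Rpn11) was at 33.9, 20.9 and 21.3 CPM in knockouts and 22.6, 26.8 and 31.0 CPM in controls (log2 fold change -0.07, SE 0.20, edgeR adjusted p = 0.814, and 0.65 by library size alone). Psmd11 (Rpn6) was at 47.6, 35.7 and 30.6 CPM in knockouts and 29.0, 30.8 and 44.6 CPM in controls (0.13, SE 0.20, adjusted p = 0.629). Psmd3 (Rpn3) was at 61.0, 46.0 and 44.3 CPM in knockouts and 42.7, 41.8 and 45.8 CPM in controls (0.22, SE 0.14, adjusted p = 0.244). In all 3 knockout 1 was the highest knockout and control 3 the highest control, and the groups overlapped. Pseudogene copies of Psmd11 held counts equal to 13.2% of its own.

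**Figure D3:**
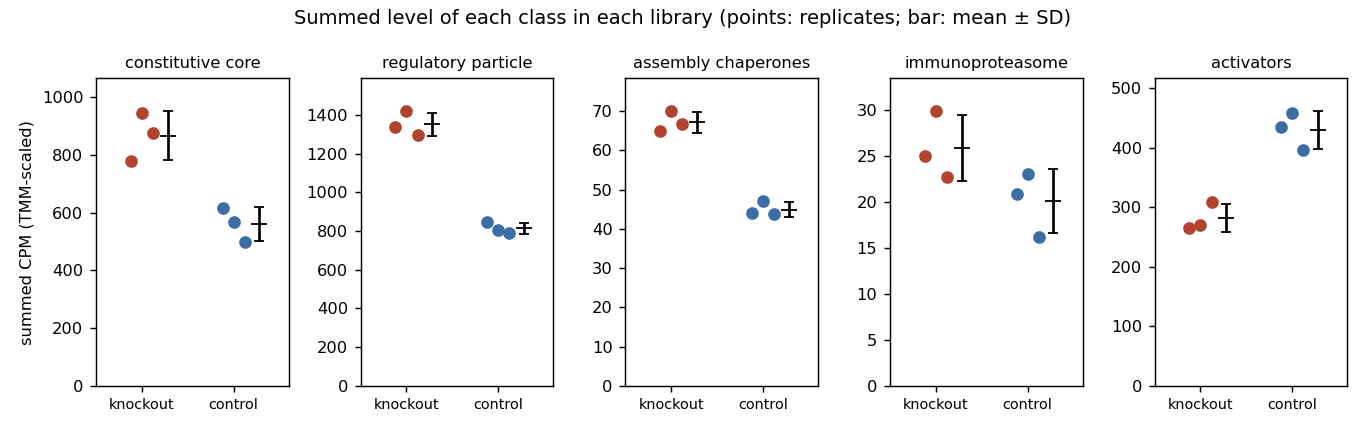
Summed CPM of each class in each library (points, with mean ± SD, n = 3 each) on linear axes from 0. Core sums run from 780 to 947 CPM in knockouts and from 498 to 615 CPM in controls, regulatory particle sums from 1298 to 1418 CPM in knockouts and from 789 to 846 CPM in controls, and activator sums from 266 to 308 CPM in knockouts and from 396 to 458 CPM in controls.

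Transcript levels per kilobase of exon spread widely within each complex, as a description of these libraries. Over the 14 core genes the level ran from 14.4 CPM per kb (Psma2) to 55.2 (Psma6) in knockouts, a span of 3.82-fold around a median of 27.1. In controls it ran from 10.1 (Psmb1) to 33.1 (Psma6), a span of 3.27-fold around 17.7. The regulatory particle spanned more. From Psmd11 to Psmc3, it ran from 5.95 to 59.0 CPM per kb in knockouts (9.91-fold) and from 5.45 to 32.3 in controls (5.93-fold), with Psmc3 called higher and Psmd11 not called. Exonic length counts all annotated exons of a gene, so these levels depend on the annotation.

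The assembly chaperones, which help to build the complex and leave it, rose in 6 of 7 genes (85.7%, beside 18.7% of all tested genes). Their median log2 fold change was 0.58. Psmg2 (PAC2), part of the chaperone of the alpha ring, was at 12.3, 17.2 and 15.3 CPM in knockouts and 10.01, 9.45 and 8.83 CPM in controls (0.66, SE 0.16, edgeR adjusted p = 0.0105). Psmg1 (PAC1), its partner, was at 10.4, 9.99 and 9.10 CPM in knockouts and 7.75, 6.22 and 7.09 CPM in controls (0.48, SE 0.15, adjusted p = 0.0332). Psmg4 (PAC4) was at 3.61, 3.89 and 3.95 CPM in knockouts and 1.96, 2.67 and 2.67 CPM in controls (0.67, SE 0.22, adjusted p = 0.0399). In these the lowest knockout lay above the highest control. Psmg3 (PAC3) was not called (0.48, SE 0.32, adjusted p = 0.264). It was at 4.67, 3.95 and 3.14 CPM in knockouts and 2.03, 2.11 and 4.53 CPM in controls, and without control 3, the high one, it was called (0.94, adjusted p = 0.0386).

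All chaperones of the regulatory particle base rose. Psmd5 (S5b) was at 18.1, 17.5 and 17.1 CPM in knockouts and 12.1, 12.1 and 9.64 CPM in controls (0.63, SE 0.14, edgeR adjusted p = 0.00583). Psmd10 (gankyrin) was at 5.63, 5.69 and 5.56 CPM in knockouts and 3.54, 4.67 and 3.14 CPM in controls (0.58, SE 0.20, adjusted p = 0.0448). Psmd9 (p27) was at 10.1, 11.7 and 12.4 CPM in knockouts and 6.55, 9.78 and 7.90 CPM in controls (0.51, SE 0.18, adjusted p = 0.0476). The groups did not overlap, but by narrow gaps for Psmd9 and Psmd10. Of the exonic bases of Psmd9, 25.5% are shared with Gm26745 on the other strand. The count of 6 chaperones called was not stable, falling to 2 without knockout 2, to 3 without knockout 3, control 1 or control 3, and to 2 with DESeq2, while every direction was kept.

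Of the 5 activators, which bind the core in place of the regulatory particle, 2 fell, 1 rose and 2 were not called. Over all tested genes 17.8% were called lower and 18.7% higher. Psme1 (PA28 alpha, ENSMUSG00000022216.16, chr14:55578123-55581529) was at 16.8, 23.8 and 21.2 CPM in knockouts and 42.1, 44.9 and 36.7 CPM in controls (20.6 ± 3.53 in knockouts and 41.2 ± 4.17 in controls, SD, n = 3 each). Its level in knockouts was 0.499 times that in controls (log2 fold change -1.003, SE 0.15, edgeR adjusted p = 7.26e-04). Psme4 (PA200, ENSMUSG00000040850.17, chr11:30771726-30880361) was at 191, 190 and 226 CPM in knockouts and 343, 365 and 309 CPM in controls, a ratio of 0.597 (-0.74, SE 0.13, adjusted p = 0.00201). In both genes every knockout lay well below every control. By library size alone, where the median of all genes was 0.68, Psme1 had -0.31 (adjusted p = 0.185) and Psme4 -0.05 (adjusted p = 0.849), and neither was called.

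Psme2 (PA28 beta), whose product forms 1 ring with that of Psme1 and whose gene lies near it on chromosome 14, did not follow. Psme2 was at 11.5, 13.2 and 14.3 CPM in knockouts and 13.9, 11.2 and 9.06 CPM in controls (0.18, SE 0.18, edgeR adjusted p = 0.465). Within each library, which needs no scaling, Psme1 counts were 147%, 180% and 148% of Psme2 counts in knockouts and 303%, 400% and 405% in controls. The lowest control ratio was well above the highest knockout ratio. This pair was chosen after its values were seen. Psme2b, a retrocopy of Psme2 on chromosome 11 that matches it at 99.4% of 794 bases, had -0.14 (SE 0.18, adjusted p = 0.569, and 0.54 by library size alone), and reads of the pair may be split between them.

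Psme3 (PA28 gamma, of the nucleus) was at 41.0, 38.3 and 42.6 CPM in knockouts and 30.0, 32.3 and 34.8 CPM in controls, without overlap (0.33, SE 0.11, edgeR adjusted p = 0.0413). That call ended without knockout 2 (adjusted p = 0.0681), knockout 3 (0.114), control 1 (0.122) or control 2 (0.111), and with DESeq2 (0.0684). Psmf1 (PI31, described as an inhibitor of the core) was at 12.9, 14.9 and 14.7 CPM in knockouts and 11.7, 12.8 and 11.96 CPM in controls, and was not called (0.22, SE 0.13, adjusted p = 0.213). The median of the 5 activators was -0.14, and 0.54 by library size alone.

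**Figure D4:**
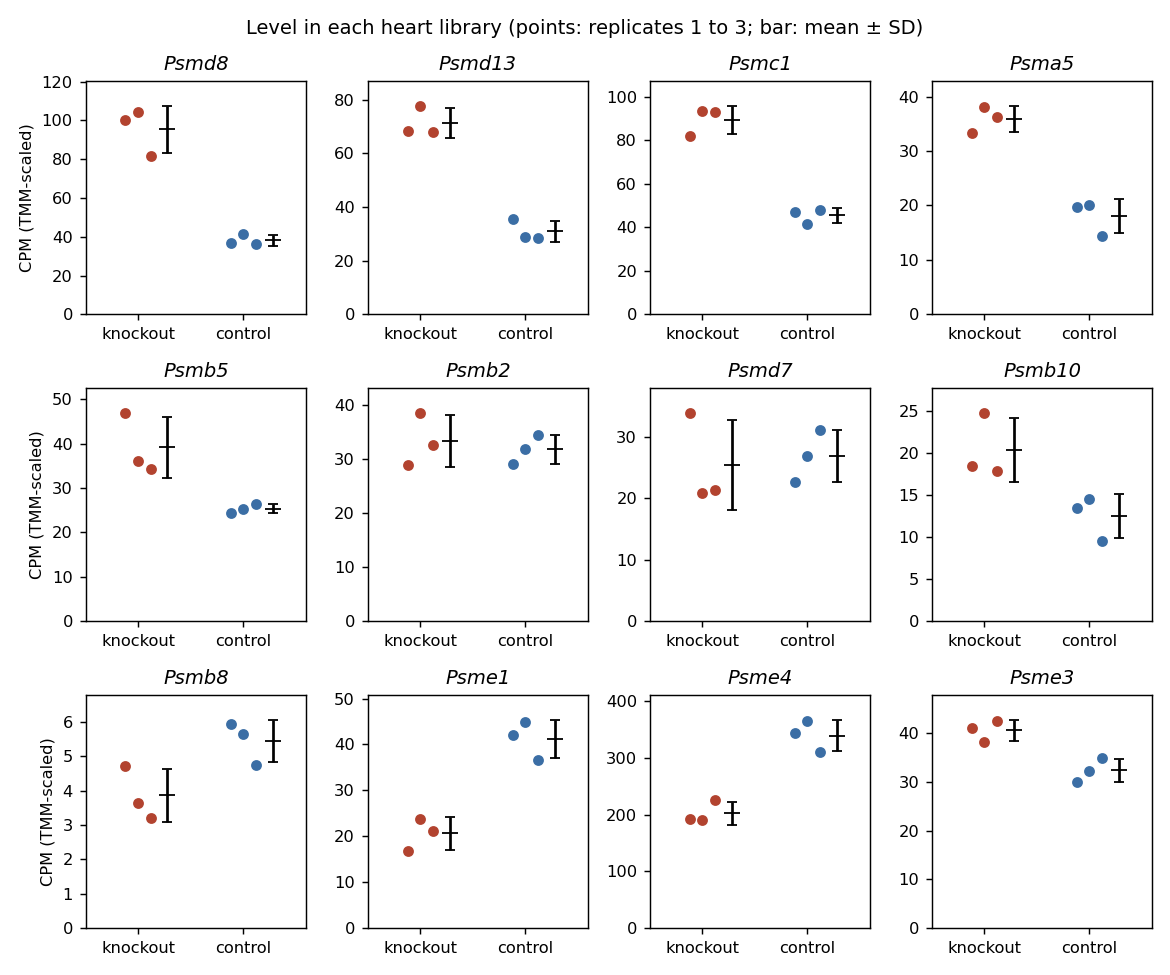
Level (CPM, TMM-scaled, linear axes from 0) of 12 proteasome genes in each library, with mean ± SD (n = 3 each). Psmd8, Psmd13, Psmc1, Psma5, Psmb5, Psmb10 and Psme3 are higher in all knockouts, Psmb8, Psme1 and Psme4 are lower in all knockouts, and Psmb2 and Psmd7 overlap.

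Genes that work with the proteasome mostly moved the same way. Of 29 listed, 28 were matched and tested. Of these, 17 were called higher by edgeR (60.7%, beside 18.7% of all tested genes) and 1 lower (3.57%, beside 17.8%). The median log2 fold change of the list was 0.40. Among subunits and assembly factors outside the name rule, Sem1 (a small lid subunit) was at 53.3, 72.3 and 83.7 CPM in knockouts and 43.5, 45.0 and 35.1 CPM in controls (0.76, SE 0.17, adjusted p = 0.00729). Adrm1 (Rpn13, a ubiquitin receptor) averaged 24.2 ± 2.75 CPM in knockouts and 15.4 ± 3.46 CPM in controls (0.64, SE 0.17, adjusted p = 0.0162). Pomp, the chaperone that joins the precursors of the core, averaged 32.6 ± 2.28 CPM in knockouts and 23.1 ± 2.08 CPM in controls (0.50, SE 0.12, adjusted p = 0.00900). None of these overlapped between the groups, where 26.2% of all tested genes lay higher without overlap.

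Among the shuttle factors, which bring ubiquitin-tagged proteins to the proteasome, Rad23b, Ubqln1 and Ubqln4 were called higher and Ubqln2 lower. Rad23b averaged 124 ± 7.72 CPM in knockouts and 74.4 ± 4.74 CPM in controls (0.73, SE 0.11, edgeR adjusted p = 0.00102), and Ubqln1 had 0.48 (adjusted p = 0.00661). Txnl1, a redox protein bound to the regulatory particle, had 0.65 (SE 0.11, adjusted p = 0.00194). Rps27a, which encodes ubiquitin fused to a ribosomal protein, had 0.80 (SE 0.14, adjusted p = 0.00160), whereas the polyubiquitin gene Ubb (0.21, adjusted p = 0.253) was not called. Ubqln2, the gene called lower, had overlapping groups (-0.88, adjusted p = 0.0409). Its call ended without knockout 2 (adjusted p = 0.138), knockout 3 (0.101), control 2 (0.148) or control 3 (0.139), and by library size alone (-0.16, 0.623). The call on Ubqln4 (0.30, edgeR adjusted p = 0.0477) ended with each library left out in turn (0.0524 to 0.134). It also ended with no filter, with 50 counts in 3 libraries, with DESeq2 (0.0846) and in the authors' deposited table (0.0847). Ubqln2 and Ubqln4 were named after their values were seen.

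Nfe2l1 encodes NRF1, the membrane-bound transcription factor known to induce proteasome genes when proteasome activity falls. It averaged 338 ± 34.1 CPM in knockouts and 255 ± 15.4 CPM in controls (0.41, SE 0.13, edgeR adjusted p = 0.0332). Nfe2l2 (NRF2, of the oxidative stress response) averaged 61.5 ± 3.11 CPM in knockouts and 46.5 ± 6.76 CPM in controls (0.40, SE 0.13, adjusted p = 0.0311). The edgeR call on Nfe2l1 ended without knockout 2 (adjusted p = 0.0674), control 1 (0.0904), control 2 (0.0698) or control 3 (0.0961). That on Nfe2l2 ended without knockout 2 (adjusted p = 0.0801), knockout 3 (0.0843), control 1 (0.103) or control 2 (0.107). NRF1 is regulated by cleavage and turnover of the protein, which these counts do not measure. The list's count of 17 fell to 9 without knockout 2 and to 10 without control 1 or control 2.

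Since many of these genes moved together, their promoters were searched for the antioxidant response element that NRF1 and NRF2 bind, as the letters TGACNNNGC on either strand. RefSeq sequence of the 250 bases before the transcription start (GRCm38.p6) was matched for 42 of the 50 genes. The letters were found in 5 of the 42 (11.9%) and in 11.5% of all genes with promoter sequence of this length, so the share was near that of all genes. The 5 were Psmb5, Psmb6, Psmc6, Psmd12 and Psmd9, all called higher. Most genes with a matched promoter were called higher, 29 beside 12 that were tested and not called higher. The letters were in 5 of these 29 (17.2%) and in 0 of the 12, a difference that was not tested. A match is a description of the letters and not evidence of binding. Stretches are shown for 4 of the 5 genes, 1 for each that rose and is a subunit. They are given 5′ to 3′ on the gene's strand with the matched letters in capitals. Those of Psmc6 and Psmd12 match on the reverse strand.
Psmb5: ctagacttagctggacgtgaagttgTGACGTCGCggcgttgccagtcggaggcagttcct
Psmb6: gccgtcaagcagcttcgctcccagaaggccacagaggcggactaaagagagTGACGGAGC
Psmc6: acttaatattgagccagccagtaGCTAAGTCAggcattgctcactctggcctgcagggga
Psmd12: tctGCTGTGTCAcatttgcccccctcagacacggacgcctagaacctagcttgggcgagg
They lie at chr14:54618008-54618067 (Psmb5, minus strand), chr11:70525297-70525356 (Psmb6), chr14:45329574-45329633 (Psmc6) and chr11:107479278-107479337 (Psmd12), the last 3 on the plus strand. The match lies 9 and 47 bases before the start in Psmb6 and Psmb5, and 227 and 247 bases before it in Psmc6 and Psmd12. The CCAAT box, letters CCAAT on either strand, was found in 15 of 42 (35.7%) and in 37.5% of all genes with such sequence. An interferon-type element, letters GAAA, NN and GAAA in a row on either strand, was found in 3 of 42 (7.14%) and in 3.46% of all genes with such sequence, and in 0 of the 3 immunoproteasome genes.

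The remaining genes were at or near the floor of detection. Psmb11 (the thymus subunit) had no read in any library. Psma8 (the testis subunit) had 10, 9 and 6 reads in knockouts and 2, 1 and 1 in controls, and it did not pass the filter. Psmc3ip was at 0.902, 1.63 and 1.45 CPM in knockouts and 1.20, 0.556 and 0.929 CPM in controls, with overlapping groups (0.50, SE 0.38, edgeR adjusted p = 0.330).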

How the data were processed

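Total heart RNA of 3 knockout and 3 control mice was sequenced as paired-end TruSeq libraries, per the labels' protocols, with technical replicates that reach the deposit as a single count column for each mouse. The submitters' processing notes name the mm10 build, HISAT2 2.0.5 and SAMtools 1.5 as well as featureCounts 1.5.1 and DESeq2 1.16.1, without options. The authors deposited raw read counts per gene, with no normalisation. They also deposited a normalised signal, counts divided by 1 size factor per library, and a results table. The columns of this deposited table are a log2 fold change, its error, a score (the test statistic), and raw and adjusted p-value.

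Knockout and control counts were compared in R 4.3.3 by edgeR 4.0.16 (quasi-likelihood test), using TMM scaling, filterByExpr (minimum count 10), no block, and Benjamini-Hochberg adjustment over 14302 genes. Genes with an adjusted p under 0.05 were called. Levels are TMM-scaled CPM. SE is the log2 fold change divided by the square root of F. Lengths, coordinates and overlaps are from the GENCODE annotation of GRCm38, the same assembly as mm10. Copies (95% identity over at least 600 bases) were found with blastn 2.17.0. The script was tested on simulated data. Each library is 1 mouse by the labels and was taken as 1 replicate. Libraries of a group differed beyond counting noise (lowest chi-square per degree of freedom 8.13). This value does not tell a difference between mice from one between library preparations.

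Members and gene lists were chosen with earlier results of these data known. Single values of some list genes are not reported here, although list counts and medians include them. Values in every library are given for called genes with the largest changes in each class (up to 4 each way), for the exchange pairs, and for uncalled genes named beside them. As alternatives, RLE, TMM without mitochondrial features and plain library size replaced the scaling. Others were different filters (50 counts in 3 libraries, or none), DESeq2 1.42.0, limma-voom (limma 3.58.1), the replicate number as a block, leaving out each library, the authors' table, and copies added to their parent gene, which was chosen after seeing the data.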

Additional observations from a re-analysis of the deposited data

How the results depend on the processing

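RLE scaling, TMM without mitochondrial features, limma-voom and no filter moved no class count by over 1.5 times, and 33 or 34 proteasome genes were called higher and 2 lower under each. By library size alone, 8093 of all tested genes were called higher and 552 lower (median 0.68). Under that scaling 43 proteasome genes were called higher and 0 lower, activators 2 higher and 0 lower, associated genes 27 higher and 0 lower, and MHC class I genes 6 higher and 0 lower. Medians that turned sign there were those of the immunoproteasome (0.40), the activators (0.54) and the MHC class I list (0.48). Proteasome genes that turned sign there were Psmb8 (0.19), Psmb9 (0.40), Psmd7 (0.65) and Psme2b (0.54). Genes of the other lists that turned sign with a call under either scaling, as far as reported here, were AI314180 (0.55), Ddi2 (0.56), H2-D1 (0.49), Tap2 (0.20), Erap1 (0.55) and Calr (0.59). All of these lie below the all-gene median of 0.68 under that scaling. With 50 counts in 3 libraries the immunoproteasome median was 0.078, since Psmb9 was not kept, and without control 2 it was -0.015. DESeq2 and the authors' table each called 2 chaperones higher, 0 activators higher and 1 MHC class I gene lower, which was Pdia3 (adjusted p = 0.0354 in both), not Tap2 or Nlrc5. Same-numbered hearts did not deviate together (correlations of -0.20, 0.09 and -0.09), and of the knockouts 1 of 3 correlated best with its own number, so the numbers were not taken as pairs. With the replicate block, 26 proteasome genes were called higher and 2 lower (core 11 and regulatory particle 12 higher, with Psmc2, Psmd1 and Psme3 among the calls lost), 2 chaperones and 0 activators higher, 12 associated genes higher and 0 lower, and 0 MHC class I genes lower, beside 2178 of all genes higher and 2115 lower. Leaving out each library in turn gave 1899 to 2903 genes higher and 1795 to 2934 lower over all genes. For the proteasome it gave 25 (without knockout 2) to 33 higher and 2 to 3 lower, for the core 10 to 13 higher and for the regulatory particle 12 to 14 higher. It gave 2 to 4 chaperones higher, 0 to 1 immunoproteasome genes higher and 0 to 1 lower, 0 to 1 activators higher and 2 lower. It gave 9 to 17 associated genes higher and 0 to 1 lower, and 0 to 1 MHC class I genes higher and 0 to 4 lower. The cause of these differences was not tested. Depth limits Psmb9, Psmc3ip and Psma8 most, where a library holds few reads.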

Other observations

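Proteasome genes shared an order of the libraries within a group. Knockout 2 was the highest knockout for 32 of the 48 tested genes (66.7%), as for 31.7% of all tested genes. Control 3 was the lowest control for 28 (58.3%), as for 36.5% of all tested genes. A smaller set of 11 genes (22.9%) was highest in knockout 1, as for 36.1% of all tested genes. These were Psmb5, Psmb8, Psmb9, Psmc2, Psmd3, Psmd5, Psmd7, Psmd11, Psme2b, Psmg1 and Psmg3. The median GC content of the longest coding transcript was 51.5% in the 11 genes and 49.4% in the 32 genes. Over all tested genes it was 52.0% for those highest in knockout 1 and 49.7% for those highest in knockout 2. The part of base composition in this order of libraries or in the calls was not tested.

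Psma8, whose product replaces alpha4 in the testis, had reads in all 3 knockout hearts (10, 9 and 6) and in all 3 control hearts (2, 1 and 1). At these counts it was not tested. The pseudogene Psmb6-ps2 had 0, 5 and 2 reads in knockouts and 1, 0 and 2 in controls.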
